A study of Mus musculus with 5 samples.

Results

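The genes of the transforming growth factor beta (TGF-beta), activin and bone morphogenetic protein (BMP) pathway were followed in T cells from the lamina propria of the mouse colon, the connective tissue under the gut lining. Members were the rows of the deposited count table whose symbol began with a name of the family (Tgfb with a number or r, Smad, Smurf, Tgif, Acvr, Bmpr, Bmp with a number alone, Inha or Inhb, Gdf or Ltbp), together with Mstn, Ski and Skil. The rule found 63 genes of the 24417 with a symbol. Of these, 59 had a count in at least 1 library, 43 passed the filter on low counts and were tested, and 4 (Bmp10, Bmp15, Tgif2lx1 and Tgif2lx2) had no count in any library.

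All libraries came from mice carrying 2 marked forms of Foxp3, whose product is the lineage factor of regulatory T (Treg) cells. The strain name joins Foxp3DTR-GFP, an allele tagged with DTR-GFP, to loxp-Thy1.1-STOP-loxp-GFP, a reporter-null allele with Thy1.1 and a floxed STOP ahead of GFP. Both groups share this strain. The Treg group held 2 libraries of DTR-GFP-positive cells, while 3 libraries of Thy1.1-positive cells, marked by the null allele, formed the reporter-null group. No treatment, age or number of animals is given in the labels, and the description of the first reporter-null library names 1 and 4 together. The p-values below therefore rest on the spread among these libraries, and that spread may be technical. The libraries are called Treg 1 and Treg 2 and null 1, null 2 and null 3, by the replicate numbers of their titles. The comparison addresses which transcripts depend on Foxp3 in colonic cells that have turned on its locus.

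TGF-beta, activins, myostatin and BMPs are secreted dimers that bring together type II and type I receptor kinases. The type I receptor phosphorylates SMAD2 and SMAD3 for TGF-beta, activin and myostatin, or SMAD1, SMAD5 and SMAD9 for BMPs, and these enter the nucleus with SMAD4, while SMAD6, SMAD7, SMURF ubiquitin ligases and the SKI, SKIL and TGIF corepressors restrain the signal. In the gut, TGF-beta is known for inducing Foxp3 in naive T cells, for promoting Th17 cells together with IL-6, and for inducing CD103. TGF-beta is secreted in a latent form and has to be released before it binds its receptors.

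The libraries held 17670420 to 22395169 counts each. Levels are given in CPM, the counts scaled to library size with TMM factors, and an error after ± is the SD over 2 Treg or 3 reporter-null libraries. A positive log2 fold change means a higher level in reporter-null cells, and SE is its standard error. Adjusted p-values are those of edgeR's quasi-likelihood test, corrected by the Benjamini-Hochberg method over all 14164 tested genes, and a gene was called at an adjusted p under 0.05. Foxp3 (764 to 770.0 CPM in Treg and 75.7 to 81.3 CPM in reporter-null libraries) and Thy1 (18.8 to 21.4 and 269.3 to 300.5 CPM) followed the labels in all 5 libraries. Markers of CD4 T cells were present in each, with Cd3e at 1036 to 1260 CPM. Cd4 itself was 682 and 720 CPM in Treg and 1271 to 1555 CPM in reporter-null libraries. It was called higher (log2 fold change 0.99, adjusted p = 0.00796), and the other 6 of these 7 markers were not called. Epithelial markers were uneven. The summed level of 9 such genes was 225 CPM in Treg 1 and 1051 CPM in null 2, against 19.2 to 42.2 CPM in the other libraries, and Muc2 was at 0 counts in null 1 and null 3. The summed level of 7 fibroblast markers (42.6 and 110.8 CPM, against 10.2 to 20.6 CPM) and of 9 myeloid markers (47.7 and 91.1 CPM, against 16.2 to 26.9 CPM) was highest in the same pair of libraries. So was that of 6 B and plasma cell markers (1408 and 853 CPM, against 382 to 434 CPM). Within these lists, the fibroblast marker Pdgfrb instead followed the groups (0.163 and 0.277 CPM in Treg, 6.19 to 10.3 CPM in reporter-null libraries). The B cell marker Cd79b did so in the other direction (20.4 and 19.2 CPM, against 6.81 to 7.42 CPM). Of another lymphocyte type, 2 of 3 gamma-delta T cell markers rose (summed level 10.8 to 11.0 CPM in Treg and 422 to 625 CPM in reporter-null libraries, of which 5830411N06Rik made up most). Their part in the results below was not tested. Results are also given without both Treg 1 and null 2 where that changes a call.

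Of the 43 tested members, 5 rose in reporter-null cells (Mstn, Tgfbr3, Tgfb3, Acvr2a and Tgfbr2) and 1 fell (Bmp7), while 37 did not pass the test. That is 14.0% of the tested members, beside 8.79% of all tested genes called in either direction, 4.07% called higher and 4.72% called lower. The members were chosen with earlier results of these data known, so these shares are a description and not a test. The median log2 fold change of the members was 0.15, against 0.02 for all tested genes. The groups did not overlap for 21 members, 14 higher and 7 lower, where 40.8% of all tested genes did not overlap. At an unadjusted p under 0.05 there were 13 members, beside 22.6% of all tested genes. The RNA was taken from bulk populations, so fewer cells that express a gene and less RNA of it per cell cannot be told apart. In the absence of both Treg 1 and null 2, a fit with 1 Treg library that is assumed to vary like the others, the 6 calls remained and Acvr1 (higher) and Tgfbr1 (lower) joined them, with 15.2% of all tested genes called. DESeq2 called 7 members higher, the 5 above with Smad1 and Smad2, and 2 lower, Bmp7 and Tgfbr1, beside 16.4% of all tested genes. Without null 2 the 5 higher members remained, and Bmp2, Smad7, Tgfbr1 and Tgif1 were called lower with Bmp7, beside 15% of all tested genes.

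**Figure D1:**
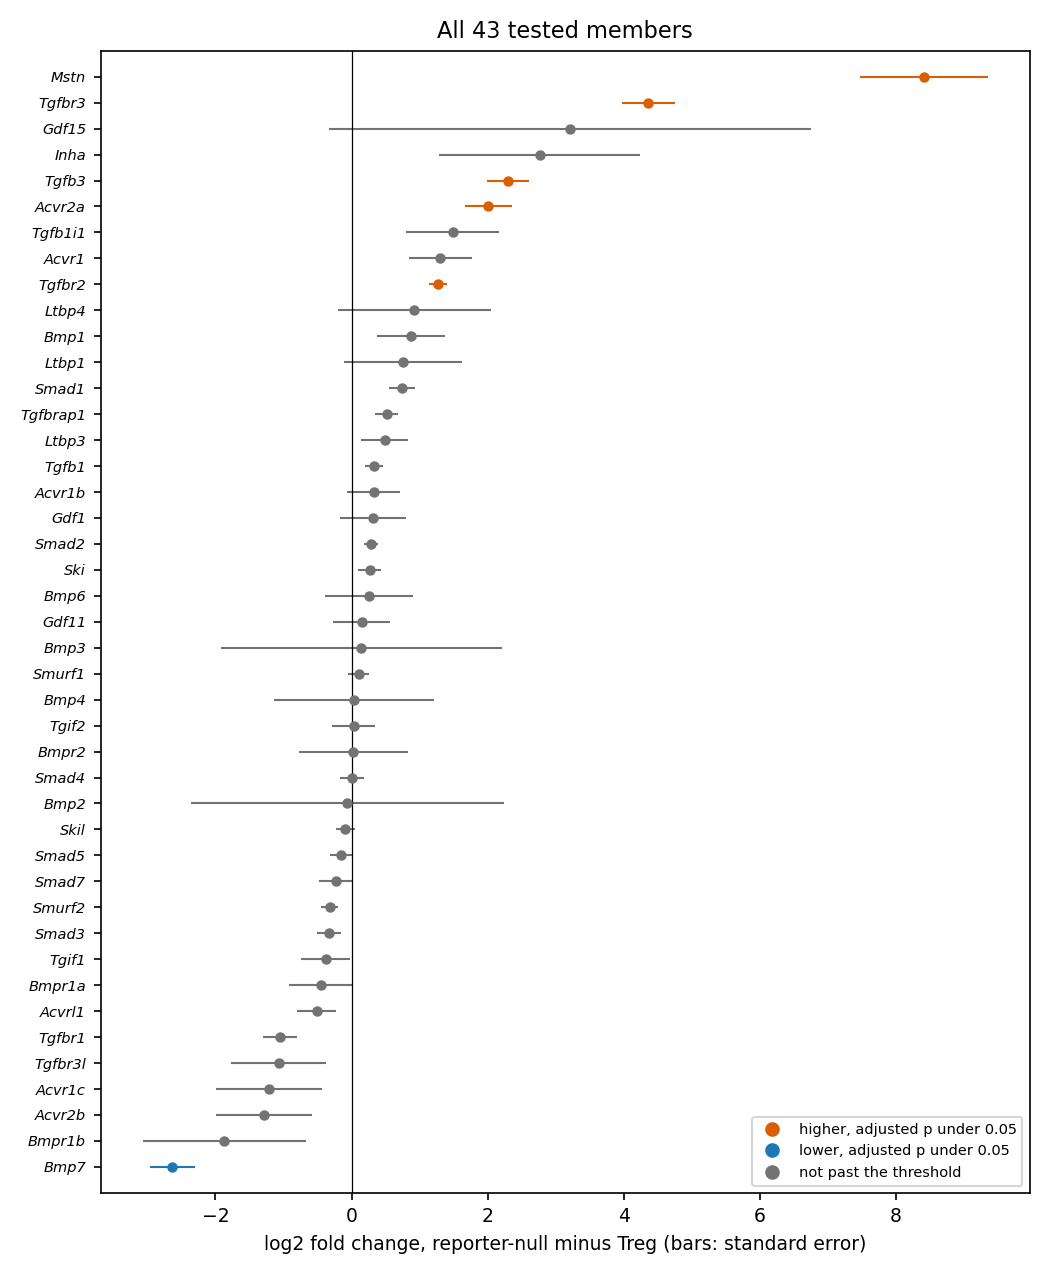
Log2 fold change (x axis, reporter-null minus Treg) of each of the 43 tested members (y axis), with bars for the standard error and colours for the call at an adjusted p under 0.05. Mstn at 8.40 and Bmp7 at -2.63 lie at the ends, and 22 members lie within 0.5 of zero on the log2 scale.

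Among the ligands, transcripts of myostatin, the activin-class ligand best known as a brake on muscle growth, appeared almost only in reporter-null cells. Mstn had 7 counts in Treg 1 and 0 in Treg 2, against 899, 977 and 2031 counts in null 1, null 2 and null 3. On the CPM scale this was 0.38 and 0 in the Treg libraries and 48.7, 46.9 and 90.4 in the reporter-null libraries. Every reporter-null library lay far above both Treg libraries, and null 3 was the highest. The log2 fold change was 8.40 (SE 0.939, adjusted p = 0.0126). Without Treg 2 it was 7.33, and without Treg 1, where no Treg count is left, the mean of the reporter-null libraries was at least 447-fold higher than a floor of 3 counts in the remaining Treg library, a limit that covers counting error only. The call was lost without null 1 (adjusted p = 0.0589) and with limma-voom (0.0979). It was also lost with the title number as a block (0.121, the highest of 16 alternatives) and with the description number as a block.

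RefSeq promoter windows (250 bases before to 50 after the transcript start, build GRCm38.p6) were matched for 3 of the 6 called members, Mstn, Acvr2a and Tgfbr2, and are shown because these transcripts differed between the groups. The windows of Tgfbr3, Tgfb3 and Bmp7 were not analysed here. The Mstn window lies at chr1:53061390-53061689 and that of Acvr2a at chr2:48813859-48814158, both on the plus strand. That of Tgfbr2 lies at chr9:116175314-116175613 on the minus strand. Capitals mark the SMAD box CAGAC on either strand, the short element that the SMAD3 and SMAD4 DNA-binding domains recognise.
Mstn: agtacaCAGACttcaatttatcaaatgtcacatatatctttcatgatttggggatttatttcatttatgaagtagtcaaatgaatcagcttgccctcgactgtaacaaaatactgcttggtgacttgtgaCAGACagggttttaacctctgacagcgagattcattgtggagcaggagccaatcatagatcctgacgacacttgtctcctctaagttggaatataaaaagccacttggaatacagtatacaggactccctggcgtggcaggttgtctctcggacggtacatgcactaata
Acvr2a: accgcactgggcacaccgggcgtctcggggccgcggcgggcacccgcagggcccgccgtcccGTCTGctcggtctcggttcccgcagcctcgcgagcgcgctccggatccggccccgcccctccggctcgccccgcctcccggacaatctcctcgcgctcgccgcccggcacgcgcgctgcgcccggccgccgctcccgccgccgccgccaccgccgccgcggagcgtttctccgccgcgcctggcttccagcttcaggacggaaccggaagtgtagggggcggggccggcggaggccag
Tgfbr2: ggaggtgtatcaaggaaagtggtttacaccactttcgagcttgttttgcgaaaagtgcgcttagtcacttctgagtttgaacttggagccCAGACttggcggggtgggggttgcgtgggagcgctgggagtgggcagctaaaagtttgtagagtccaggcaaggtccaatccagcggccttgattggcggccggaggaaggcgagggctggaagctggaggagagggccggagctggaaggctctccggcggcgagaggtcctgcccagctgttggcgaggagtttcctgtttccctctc

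The SMAD box occurred 2 times in the Mstn window and 1 time each in those of Acvr2a and Tgfbr2, and 49.6% of the 32851 windows of that length in the table held at least 1. The forkhead motif GTAAACA (3.65% of windows) and the RUNX motif TGTGGT (16.8%) were in none of the 3 windows on either strand. A TATA box, TATAAA (13.6% of windows, either strand), stood in the Mstn window alone. E-boxes, CANNTG (72.3% of windows), numbered 4 for Mstn, 1 for Tgfbr2 and 0 for Acvr2a. The windows also differed in base composition, with a GC content of 41.3% for Mstn, 59.0% for Tgfbr2 and 80.3% for Acvr2a, beside a median of 52.7% over all windows. These matches describe the letters of the windows and show no binding.

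TGF-beta ligand transcripts were led by Tgfb1, and the rise was in Tgfb3. Tgfb3, whose product signals through the same receptors as TGF-beta 1, stood at 6.24 and 3.38 CPM in Treg 1 and Treg 2 and at 23.8, 26.5 and 20.3 CPM in null 1, null 2 and null 3. The groups were well apart, with the lowest reporter-null library above 3 times the highest Treg library. Its log2 fold change was 2.29 (SE 0.307, adjusted p = 0.00619), and the call held in each fit that left out 1 library. It was lost with the title number as a block (adjusted p = 0.102, the highest of 16 alternatives). Tgfb1, the main isoform of lymphocytes, was 248.7 and 212.7 CPM in Treg and 304.2, 307.2 and 259.6 CPM in reporter-null libraries. These groups did not overlap either, but the step was small and not called (0.33, SE 0.134, adjusted p = 0.202). Per kilobase of exons, Tgfb1 stood 26.7 and 42.3 times above Tgfb3 in the Treg libraries and 8.57, 7.78 and 8.57 times above it in the reporter-null libraries. Tgfb2, the remaining isoform, had 2 to 9 counts per library and was not tested.

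Bmp7, a BMP that signals through SMAD1 and SMAD5, was the only member called lower. It was 70.5 and 56.5 CPM in Treg 1 and Treg 2 and 13.5, 6.14 and 10.99 CPM in null 1, null 2 and null 3. Both Treg libraries were thus above 4 times any reporter-null library. On the log2 scale the change was -2.63 (SE 0.329, adjusted p = 0.00721). The call was lost without Treg 1 or Treg 2, in fits with 1 Treg library left, and with the title number as a block (adjusted p = 0.0697). Over 16 alternatives the log2 fold change stayed between -2.93 and -2.20. Per kilobase of exons, the most abundant ligand after Tgfb1 was Bmp7 in Treg cells (15.8 ± 2.48 CPM per kilobase) and Mstn in reporter-null cells (22.9 ± 9.09 CPM per kilobase), where Bmp7 stood at 2.54 ± 0.935 CPM per kilobase.

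**Figure D2:**
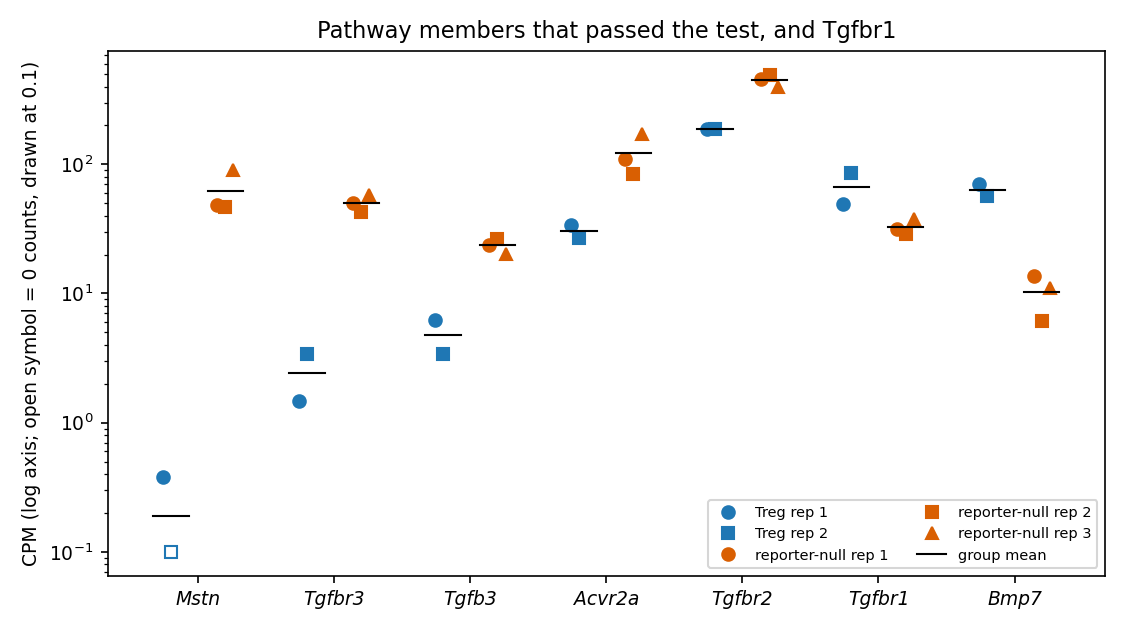
CPM on a log axis for the 6 members that passed the test and for Tgfbr1, with 1 symbol per library (blue, Treg; orange, reporter-null) and a bar for the group mean; an open symbol is a library with 0 counts. Mstn, Tgfbr3, Tgfb3, Acvr2a and Tgfbr2 are higher in all 3 reporter-null libraries, and Bmp7 is lower in all 3.

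Few other BMP and GDF ligands had appreciable transcripts. Of 20 ligand genes in this class, 10 were tested, and besides Mstn and Bmp7 none was called. Bmp1, which despite its name is a protease that cuts procollagen and latency proteins, ran from 1.34 to 1.63 CPM in Treg and from 1.84 to 3.31 CPM in reporter-null libraries (0.88, SE 0.495, adjusted p = 0.368). Gdf11, the closest relative of myostatin, was even across the libraries at 2.17 to 2.69 CPM (0.15, SE 0.421, adjusted p = 0.884). Gdf1 (1.48 to 2.18 CPM) and Bmp6 (0.647 to 1.56 CPM) were low throughout, and reads of Gdf1 may be shared with Cers1, since both lie on 1 transcript. Of the 10 untested ligands, 8 had counts, none above 0.768 CPM in any library. Subunits of activin and inhibin were scarce. Inha was the only one tested, at 0 and 0.416 CPM in Treg and 3.20, 0.720 and 0.534 CPM in reporter-null libraries (2.76, SE 1.47, adjusted p = 0.342), and it rested on 59 counts in null 1. Inhba, the activin A subunit, had 22 counts in Treg 1 and 1 to 5 in each other library. The latent TGF-beta binding protein genes Ltbp1, Ltbp3 and Ltbp4 were not called, and Ltbp2 (1 to 11 counts per library) was not tested. Ltbp3, the one with a level of several CPM in every library, ran from 3.51 to 7.06 CPM (0.48, SE 0.344, adjusted p = 0.482). Tgfb1i1, which the symbol rule also takes in, encodes an adaptor of focal adhesions and was at most 1.34 CPM (1.49, SE 0.684, adjusted p = 0.263).

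Of the chains that make up the TGF-beta receptor, Tgfbr2 rose and Tgfbr1 was lower without passing the test. Tgfbr2, the type II kinase that binds TGF-beta first, was 187.2 and 187.0 CPM in Treg 1 and Treg 2 and 461.6, 495.1 and 398.3 CPM in null 1, null 2 and null 3. Treg libraries were nearly equal and every reporter-null library was more than 2 times higher. The log2 fold change was 1.27 (SE 0.134, adjusted p = 0.00268), and the call held in each fit that left out 1 library. It was lost with the title number as a block (adjusted p = 0.0653, the highest of 16 alternatives). Tgfbr1, the type I kinase that TGFBR2 activates, was 48.9 and 85.8 CPM in Treg and 31.5, 28.9 and 37.4 CPM in reporter-null libraries. All 3 reporter-null libraries were below both Treg libraries, but the Treg pair was itself far apart. The log2 fold change of Tgfbr1 was -1.05 (SE 0.248) and did not pass (adjusted p = 0.0553). It passed without Treg 1 (0.0306), without null 2 (0.0336), without both (3.94e-09), with upper quartile factors (0.0409), with unscaled library totals (0.0349), under either other filter on low counts (0.0487 and 0.0416) with DESeq2 (0.00234) and with the description number as a block (0.00429), within a range of 3.94e-09 to 0.229 over 16 alternatives, and without Treg 2 its log2 fold change was -0.58.

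The balance of the chains differed between the groups in each library. Per kilobase of exons, Tgfbr2 stood 3.05 and 1.74 times above Tgfbr1 in Treg 1 and Treg 2, and 11.7, 13.7 and 8.49 times above it in null 1, null 2 and null 3. These ratios do not overlap between the groups. They were computed after the values of both genes were seen, so they are given as a description.

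Tgfbr3 encodes betaglycan, a coreceptor that presents TGF-beta to TGFBR2 and binds inhibin. Its level was 1.47 and 3.38 CPM in Treg 1 and Treg 2 and 50.5, 42.5 and 57.7 CPM in null 1, null 2 and null 3. Every reporter-null library was more than 10 times above either Treg library. Per kilobase of exons, the level of Tgfbr3 was 0.370 ± 0.206 CPM per kilobase in Treg and 7.67 ± 1.16 CPM per kilobase in reporter-null cells, where it passed that of Tgfbr1 (4.99 ± 0.665 CPM per kilobase) in every library. For Tgfbr3 the log2 fold change was 4.36 (SE 0.393, adjusted p = 0.0024). It was 5.10 without Treg 2, and the call held in each fit that left out 1 library. The call was lost with the title number as a block (adjusted p = 0.0843, the highest of 16 alternatives). The Tgfbr3-like gene Tgfbr3l stayed at 0.490 to 1.99 CPM and was not called. Tgfbrap1, a receptor-associated protein, was 18.7 and 25.6 CPM in Treg and 31.1 to 32.2 CPM in reporter-null libraries (0.52, SE 0.174, adjusted p = 0.133).

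Acvr2a, the type II receptor shared by activins, myostatin and some BMPs, rose alongside the ligand gene Mstn. It stood at 34.0 and 26.8 CPM in Treg 1 and Treg 2 and at 109.6, 84.9 and 173.1 CPM in null 1, null 2 and null 3. As with Mstn, null 3 was the highest library. Its log2 fold change was 2.01 (SE 0.347, adjusted p = 0.0272). The call was lost without Treg 1 or Treg 2, in fits with 1 Treg library left. It was also lost without null 1 (adjusted p = 0.0831) and with the title number as a block (0.0539). Over 16 alternatives the log2 fold change stayed between 1.68 and 2.41. Its relative Acvr2b, the higher-affinity receptor of myostatin, was 0.814 and 1.29 CPM in Treg and 0.271 to 0.534 CPM in reporter-null libraries (-1.29, SE 0.707, adjusted p = 0.354). Per kilobase, Acvr2a exceeded Acvr2b by 14.3 to 28.9 times in Treg and by 122 to 279.6 times in reporter-null libraries.

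Type I receptors of the activin and BMP branches were low, and none of the 7 type I receptor genes passed the edgeR test. At an unadjusted p under 0.05 there were 2 (Tgfbr1 and Acvr1), beside 22.6% of all tested genes. DESeq2 called 1 (Tgfbr1), beside 16.4% of all tested genes, and limma-voom 0. Acvr1b, the type I receptor that activin and myostatin use with ACVR2A, ran from 2.59 to 4.55 CPM with no separation of the groups (0.32, SE 0.391, adjusted p = 0.707). Acvr1, a BMP type I receptor, was 1.41 and 1.11 CPM in Treg and 2.45 to 3.52 CPM in reporter-null libraries (1.31, SE 0.464, adjusted p = 0.152). Without both Treg 1 and null 2 it passed (adjusted p = 0.0313, within a range of 0.0313 to 0.436). Acvrl1, Acvr1c and Bmpr1b were lower in every reporter-null library than in both Treg libraries, as Tgfbr1 was. That makes 4 of the 7 genes, beside 20.5% of all tested genes, and none of the 4 was called. Bmpr1a was 3.03 to 8.26 CPM with overlapping groups.

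Bmpr2, the BMP type II receptor, split the libraries across the groups. It was 11.1 and 36.9 CPM in Treg 1 and Treg 2 and 34.0, 9.31 and 30.1 CPM in null 1, null 2 and null 3. The low values were in Treg 1 and null 2, the libraries with the most epithelial transcripts, and the part of those cells in this was not tested. Between the groups its log2 fold change was 0.02 (SE 0.802, adjusted p = 0.992), with a sign that changed when Treg 1 (-0.59), null 1 (-0.28) or null 3 (-0.15) was left out.

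**Figure D3:**
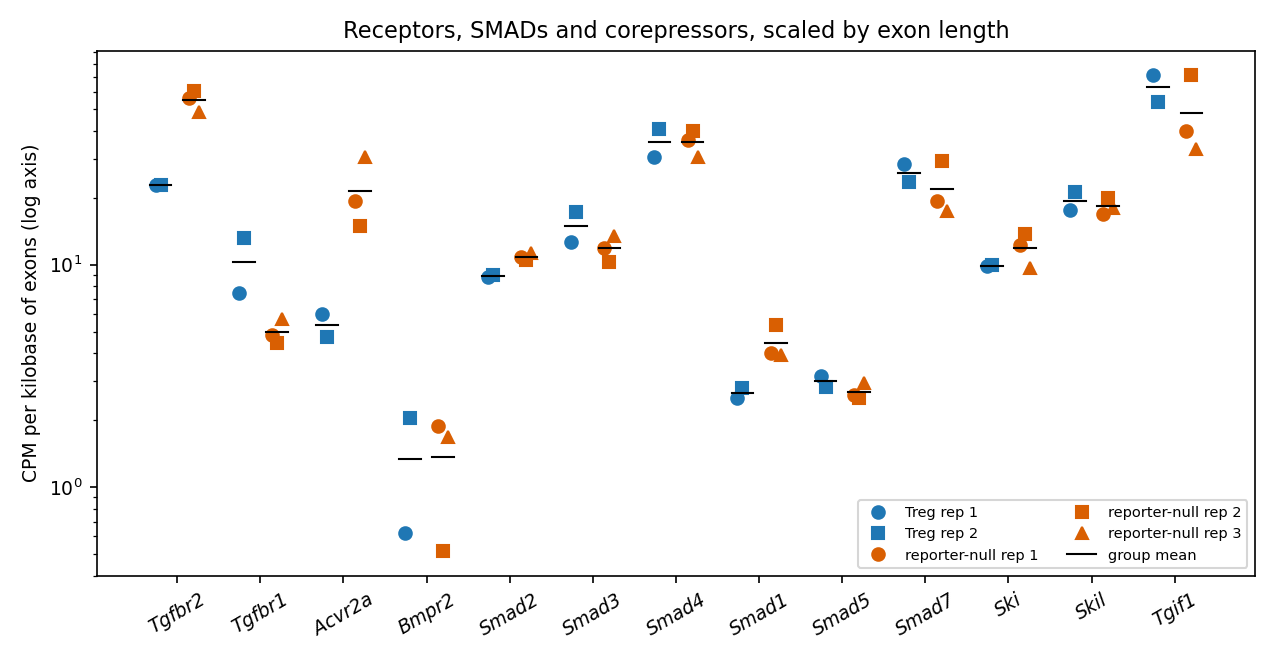
CPM per kilobase of exons (log axis) of receptors, SMADs and corepressors, with 1 symbol per library (blue, Treg; orange, reporter-null) and a bar for the group mean. Tgfbr2 and Acvr2a are higher and Tgfbr1 is lower in all 3 reporter-null libraries, and Bmpr2 is spread across both groups.

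Of 8 SMAD genes, 6 were tested and none was called by edgeR or limma-voom. Of the 6, Smad1 and Smad2 had an unadjusted p under 0.05, beside 22.6% of all tested genes. DESeq2 called the same 2, beside 16.4% of all tested genes. Smad4, the common partner, was the most abundant per kilobase in both groups (35.5 ± 7.29 in Treg and 35.6 ± 4.79 CPM per kilobase in reporter-null cells), and had a difference of 0.00 in log2 units (SE 0.174, adjusted p = 0.995). Its direction changed with upper quartile factors, with unscaled library totals and with single libraries left out, where the value reached -0.19. Smad2 was 77.6 and 78.7 CPM in Treg and 95.2, 92.0 and 99.1 CPM in reporter-null libraries (0.29, SE 0.105, adjusted p = 0.162). Although small, this step separated the groups in every library, and DESeq2 called it (adjusted p = 0.0279, within a range of 0.0279 to 0.485). Smad3 went the other way with overlapping groups, at 69.8 and 95.8 CPM in Treg and 65.9, 57.1 and 74.7 CPM in reporter-null libraries (-0.33, SE 0.179, adjusted p = 0.345).

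For the BMP branch, Smad1 was 15.7 and 17.4 CPM in Treg and 25.2, 33.5 and 24.7 CPM in reporter-null libraries, higher in all 3. It missed the threshold (0.74, SE 0.193, adjusted p = 0.0645) and passed with DESeq2 (0.0117) and without the filter on low counts (0.0487), within a range of 0.0117 to 0.324. Smad5, which carries the same signal, ran from 18.6 to 23.5 CPM (-0.16, SE 0.160, adjusted p = 0.649). Per kilobase, Smad1 and Smad5 were level in Treg cells (2.65 ± 0.190 and 2.99 ± 0.239 CPM per kilobase), and Smad1 stood above Smad5 in reporter-null cells (4.44 ± 0.791 and 2.68 ± 0.235 CPM per kilobase). Smad9 had 0 to 5 counts per library.

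Of the inhibitory SMADs, Smad7, a feedback inhibitor that TGF-beta itself induces, was 127.6 and 106.2 CPM in Treg 1 and Treg 2 and 87.0, 132.0 and 78.8 CPM in null 1, null 2 and null 3. The highest of the 5 was null 2, and the other reporter-null libraries lay below both Treg libraries. The log2 fold change was -0.24 (SE 0.238, adjusted p = 0.645). Without null 2 it was -0.51 and passed (adjusted p = 0.0431), and without both that library and Treg 1 it was -0.35 and did not (0.300), within a range of 0.0431 to 0.924 over 16 alternatives. Smad6, the inhibitor of the BMP branch, had 1 to 4 counts in each library other than null 2, which held 68.

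None of the 4 corepressor and 2 SMURF genes was called by edgeR, DESeq2 or limma-voom over all libraries. Only 1, Smurf2, had an unadjusted p under 0.05, beside 22.6% of all tested genes. Skil, which represses SMAD targets, ran from 164.4 to 206.2 CPM with overlapping groups (-0.09, SE 0.134, adjusted p = 0.770). Its relative Ski was 54.8 and 55.2 CPM in Treg and 68.3, 76.2 and 53.6 CPM in reporter-null libraries (0.26, SE 0.165, adjusted p = 0.416). Smurf1 (56.9 to 76.4 CPM, adjusted p = 0.766) did not separate the groups. Smurf2 was 47.1 and 44.9 CPM in Treg and 39.2, 33.7 and 37.6 CPM in reporter-null libraries, lower in all 3 but not called (-0.32, SE 0.123, adjusted p = 0.182). Tgif1, a homeodomain corepressor, was 402.6 and 302.2 CPM in Treg and 224.9, 400.2 and 186.0 CPM in reporter-null libraries. As for Smad7, null 2 stood apart from the other reporter-null libraries. Tgif1 was not called over all libraries (-0.38, SE 0.365, adjusted p = 0.633), passed without null 2 (-0.79, adjusted p = 0.0108) and missed without both that library and Treg 1 (0.0656), within a range of 0.0108 to 0.917. Tgif2 ran from 28.6 to 61.2 CPM, again highest in null 2 (0.03, SE 0.315, adjusted p = 0.971).

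Several low members followed single libraries rather than the groups. Gdf15, a stress-induced ligand that epithelial cells and macrophages make, was 2.23 and 0 CPM in Treg 1 and Treg 2 and 0.162, 30.5 and 0.0890 CPM in null 1, null 2 and null 3. Bmp2 had 34 and 11 counts in the Treg libraries and 0, 70 and 0 in the reporter-null libraries. Both were highest in null 2 and next highest in Treg 1, as were the summed epithelial markers. Ltbp4 (12.2 and 3.85 CPM in these libraries, 1.35 to 1.82 CPM in the others), Bmp3 (1.49 and 0.814 CPM, against 0 to 0.0925 CPM) and Bmp4 (1.25 and 0.597 CPM, against 0.0890 to 0.416 CPM) were also highest in these libraries, and Gdf10 had counts in null 2 alone, 16 of them. None of these was called in the reported fit, in which Gdf15 had an adjusted p of 0.695 (range 0.000404 to 0.950 over 13 alternatives, the lowest with the description number of the libraries as a block). Bmp2 was called lower without null 2 (adjusted p = 0.0128, within a range of 0.0128 to 0.996 over 15 alternatives), when both reporter-null libraries left had 0 counts. The part of epithelial, fibroblast, myeloid, B and plasma cells in these values was not tested.

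**Figure D4:**
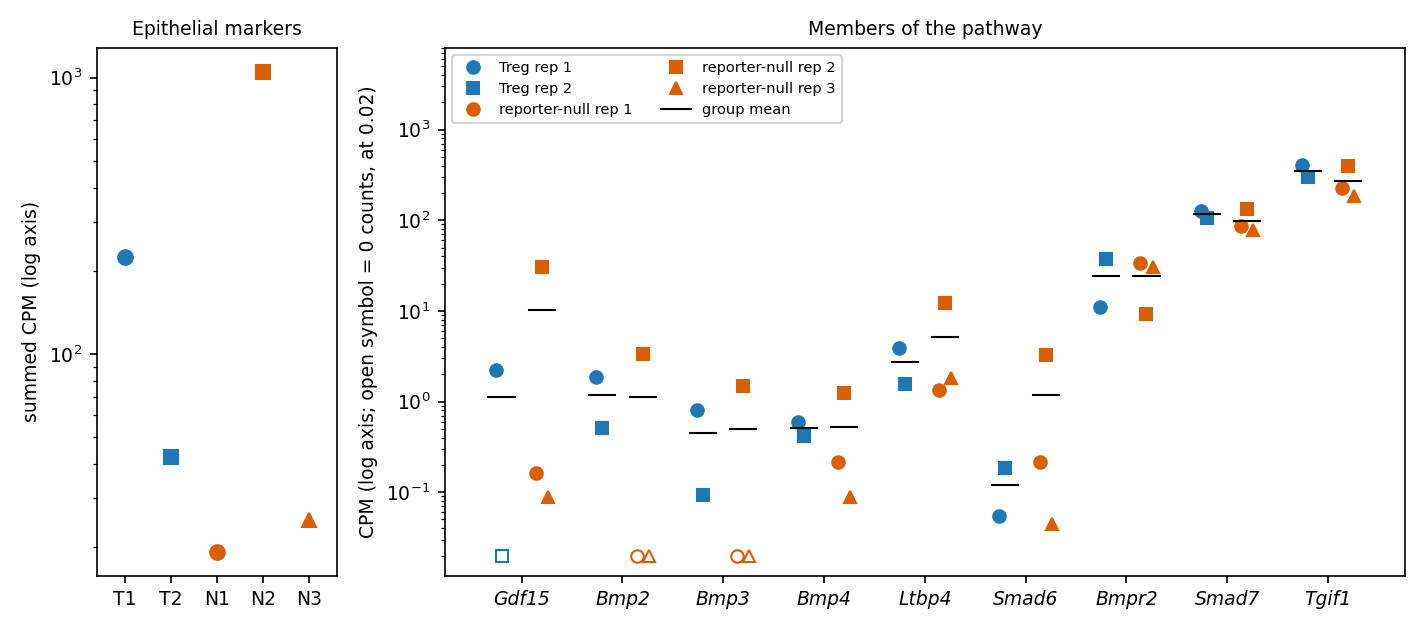
Left, the summed CPM of 9 epithelial markers in Treg 1 and Treg 2 (T1, T2) and null 1 to null 3 (N1 to N3); right, CPM of 9 pathway members in the same libraries (log axes, group mean as a bar, open symbols for 0 counts). Gdf15, Bmp2, Bmp3, Bmp4 and Ltbp4 peak in null 2, where the markers reach 1051 CPM, and Bmpr2 is lowest there.

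Other genes around the pathway were read from 7 lists, which share some genes with each other and with the members. Over the lists, 104 genes were tested and 17 called, 8 higher and 9 lower. That is 16.3%, beside 8.79% of all tested genes called (4.07% higher and 4.72% lower), which is also the background for the counts of each list below. The lists were written with earlier results of these data known, so these shares are a description and not a test. In the list of TGF-beta activation and coreceptors, 1 of 11 tested genes rose and 3 fell (median -0.30). Lrrc32 (GARP, which holds latent TGF-beta at the cell surface, -5.63, adjusted p = 0.00152), Itgb8 (a chain of the integrin that frees it, -5.54, adjusted p = 0.00162) and Nrp1 (neuropilin, which binds latent and active TGF-beta, -3.06, adjusted p = 0.00504) fell. Furin, the protease that cleaves pro-TGF-beta, rose from 207.3 and 328.4 CPM in Treg to 1307, 1772 and 1073 CPM in reporter-null libraries (2.37, SE 0.306, adjusted p = 0.00772), and leaving out Treg 1 ended the call (0.0593, within a range of 2.87e-16 to 0.0593). Itgav, the partner chain of Itgb8, was not called (-0.68, adjusted p = 0.150). Itgb8 was called in each fit that left out 1 library, as were Lrrc32 and Nrp1.

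Of 17 tested transcripts that TGF-beta is known to induce, 1 rose and 2 fell (median -0.09), beside 4.07% of all tested genes called higher and 4.72% called lower. Itgae, which encodes CD103, fell (log2 fold change -4.87, adjusted p = 5.76e-05), and Spsb1, which helps degrade TGFBR2, fell from 38.7 and 38.4 CPM to 8.56, 6.72 and 5.92 CPM (-2.45, SE 0.197, adjusted p = 0.00101). Bhlhe40, a transcription factor gene, rose from 1034 and 1073 CPM to 2760, 4129 and 2059 CPM (2.83-fold, adjusted p = 0.0330), and leaving out Treg 1, Treg 2 or null 1 ended the call (adjusted p 0.104 to 0.232). Pmepa1, a feedback inhibitor, differed by 0.01 (adjusted p = 0.990), and Nt5e, which encodes CD73, by -0.01 (SE 0.115, adjusted p = 0.975).

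Of 6 tested transcripts induced by BMP, 1 rose and 2 fell (median -0.48). Hey1, a repressor of the Hairy family, was 25.8 and 25.2 CPM in Treg and 10.5, 11.4 and 10.7 CPM in reporter-null libraries (-1.23, SE 0.154, adjusted p = 0.00487), lost without Treg 1 (0.0560). Bambi, a decoy receptor without a kinase that is also on the list of antagonists, fell from 28.8 and 25.4 CPM to 14.8 to 17.6 CPM (-0.73, SE 0.160, adjusted p = 0.0374), a call that leaving out any library other than null 2 ended (adjusted p 0.0745 to 0.236). Id2, an inhibitor of E proteins, rose (0.90, SE 0.144, adjusted p = 0.0126), a call that ended on leaving out Treg 1, Treg 2 or null 1 (0.0592 to 0.123). Id1, the most direct BMP target on the list, was 11.2 and 1.34 CPM in Treg and 1.19, 26.3 and 2.31 CPM in reporter-null libraries, again highest in null 2 and Treg 1. Of 13 tested extracellular antagonists and BMP coreceptors, Bambi was the only call.

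**Figure D5:**
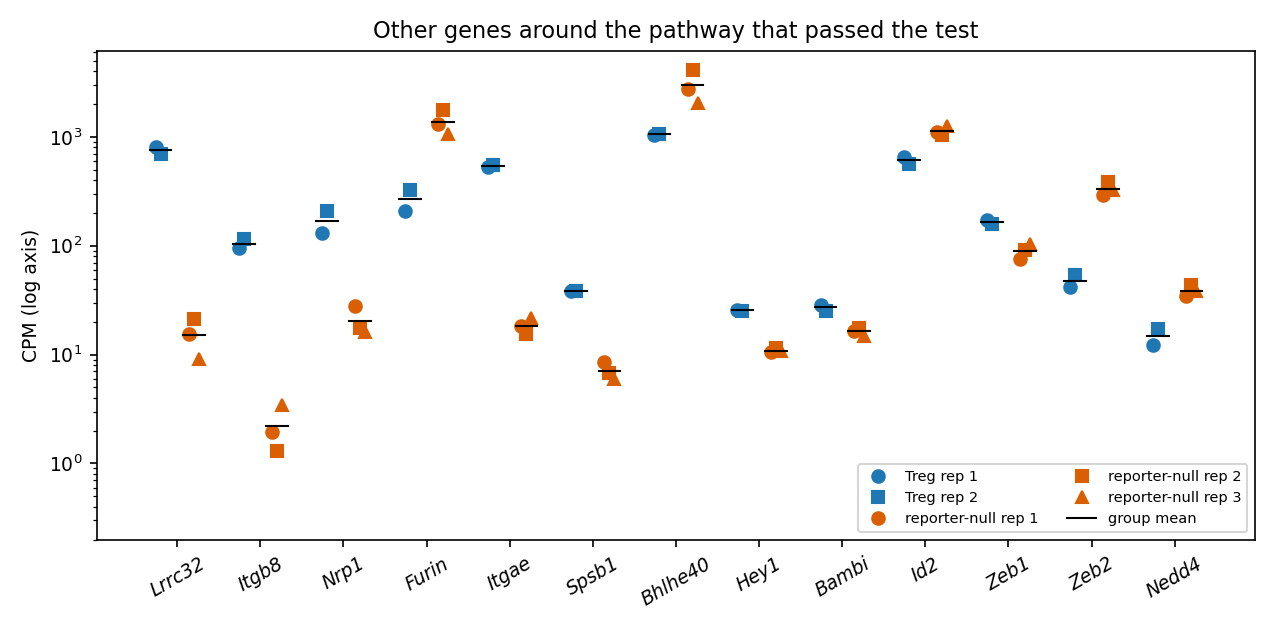
CPM (log axis) of 13 genes from the lists around the pathway that passed the test, with 1 symbol per library (blue, Treg; orange, reporter-null) and a bar for the group mean. Lrrc32, Itgb8, Nrp1, Itgae, Spsb1, Hey1, Bambi and Zeb1 are lower and Furin, Bhlhe40, Id2, Zeb2 and Nedd4 higher in all 3 reporter-null libraries.

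Inside the cell, 2 of 26 tested SMAD adaptors and regulators passed, both genes of NEDD4-family ubiquitin ligases. Nedd4 rose from 12.3 and 17.1 CPM to 34.4, 43.2 and 38.7 CPM (1.40, SE 0.201, adjusted p = 0.00818; 0.0672 without Treg 1, within a range of 3.87e-08 to 0.0785), and Wwp1 fell from 39.1 and 34.5 CPM to 17.9 to 23.2 CPM (-0.85, SE 0.165, adjusted p = 0.0255). The Wwp1 call was lost without Treg 1, Treg 2 or null 1 (0.0979 to 0.187). Among 22 SMAD nuclear partners 4 rose and 1 fell (median 0.18). The zinc finger repressors ZEB1 and ZEB2 parted, with Zeb2 rising from 41.6 and 54.1 CPM to 294.8, 381.3 and 325.2 CPM (2.80, SE 0.185, adjusted p = 0.000626) and Zeb1 falling from 174.1 and 157.5 CPM to 75.2, 91.6 and 102.8 CPM (-0.88, SE 0.152, adjusted p = 0.0165). Runx1 (0.65, adjusted p = 0.0166), Runx3 (0.58, adjusted p = 0.0418), both RUNX transcription factors, and the corepressor Ncor1 (0.57, adjusted p = 0.0270) rose by less. The calls of Zeb1, Runx1, Runx3 and Ncor1 were each lost without Treg 1, Treg 2 or null 1 (adjusted p 0.0643 to 0.236), and that of Zeb2 held in each such fit. In the branch through the kinase TAK1 (Map3k7), 0 of 14 genes passed with edgeR or limma-voom, 5 had an unadjusted p under 0.05 (22.6% of all tested genes had) and DESeq2 called 3 (beside 16.4% of all tested genes). Tab2, a TAK1-binding adaptor, came nearest (0.52, SE 0.136, adjusted p = 0.0679, with a range of 0.00664 to 0.362 over its alternatives).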

How the data were processed

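Poly(A) RNA of sorted colon cells was amplified (SMART-Seq v4, 12 cycles), made into libraries with 8 PCR cycles and sequenced on an Illumina HiSeq in paired-end mode, per the labels' protocols. The authors deposited 1 table of raw read counts per gene symbol, with no normalization. For the aligner, counter, build and strand setting, nothing is given in the sources used here, and the submitters' processing notes name DESeq without its role. Reads of overlapping or antisense genes may therefore be mixed.

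The table has 24421 rows, of which 4 without a gene name (at most 0.00492% of a library's counts) were left out. Libraries held 17670420 to 22395169 counts. Genes were kept by edgeR's filterByExpr (minimum count 10, minimum total 15), and 14164 were tested by the quasi-likelihood method with robust fitting and TMM factors (R 4.3.3, edgeR 4.0.16, limma 3.58.1, DESeq2 1.42.0). All 5 libraries entered 1 fit with the group as the only term. The SE was taken from the fold change and its F statistic. The code was tested on simulated counts. Levels per kilobase used the union of exons in GENCODE vM21, and promoters came from RefSeq, where 45 of 63 members matched.

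The members and lists were chosen with earlier results of these data known. Every called member, 16 preset members and other tested members with a mean of at least 10 CPM were named by rule, and from each further list up to 4 genes with the smallest p, with Lrrc32, Itgb8, Itgae and Nrp1. Other genes were chosen for naming after their values were seen. Alternatives were 3 other scalings, DESeq2, limma-voom, edgeR without robust fitting, other filters, each library left out, replicate blocks and an adjusted p under 0.01. A fit without both Treg 1 and null 2 was chosen after seeing the data.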

Additional observations from a re-analysis of the deposited data

How the results depend on the processing

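Over all genes, 1245 were called in the reported fit, 2323 with DESeq2, 489 at an adjusted p under 0.01, 341 to 2035 with 1 library left out and 2152 without both Treg 1 and null 2. The 5 members called higher became 3 at an adjusted p under 0.01, 3 to 5 with 1 library left out and 6 without both of those libraries. The 1 member called lower became 2 with upper quartile factors, unscaled library totals, DESeq2, no filter, a filter at 1 CPM in 2 libraries and without both libraries, and 0 to 5 with 1 library left out. The 17 calls of the 7 further lists became 7 to 26 with 1 library left out. A single Treg library is assumed to vary like the others in the fits that leave 1. Of 1023 values under alternatives for the 43 tested members and 22 named genes of the lists, 897 kept their direction and side of the threshold. Another 62 lost a call of the reported fit and 21 gained a call. A gene that kept its direction and stayed uncalled counts as kept, and 37 of the 43 members were not called in the reported fit. The remaining 43 values changed sign, in 11 members and 3 list genes, none of them called in the reported fit. The cause was not tested. At this depth 20 members fell under the filter, and no difference in them could be assessed in the reported fit.

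The genes that changed sign had these log2 fold changes. Bmpr2 ran from -0.59 to 1.14 with libraries left out. Smad4 was -0.012 with upper quartile factors, -0.0074 with unscaled totals, -0.0064 with the filter at 1 CPM, and -0.28 to 0.23 with libraries left out. Skil ran from -0.28 to 0.059 and Smurf1 from -0.086 to 0.19 with libraries left out. Tgif2 was -0.036 with limma-voom and ran from -0.29 to 0.27 with libraries left out. Among low members and with libraries left out, Ltbp4 ran from -0.78 to 1.70, Ltbp1 from -0.28 to 1.66, Bmp6 from -0.20 to 0.91, Bmp3 from -0.70 to 2.35 and Bmp4 from -0.20 to 0.54. With limma-voom Bmp3 was -1.59 and Bmp4 was -0.69. Bmp2 ran from -7.58, where both reporter-null libraries left had 0 counts and the fitted value is no bound, to 1.13. Of the list genes, Id1 ran from -1.84 to 2.88, Pmepa1 from -0.44 to 0.54 (-0.0027 with upper quartile factors) and Nt5e from -0.097 to 0.087.

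The titles and the descriptions number the replicates differently, and neither says that a number marks a shared animal. With the title number as a replicate block, 24 genes, 0 members higher, 0 members lower and 3 genes of the further lists were called, and Bmpr2 (-0.19) and Bmp3 (-0.12) changed sign. The deviations of same-numbered libraries correlated at -0.51 and -0.60. With the description number as a block, 2 members were called lower, Bmp7 and Tgfbr1 (adjusted p = 0.00429), Mstn was not called (adjusted p = 0.0555), Gdf15 was called higher (0.000404), and Bmpr2 (-0.28), Smad4 (-0.0066), Tgif2 (-0.038), Bmp4 (-0.24) and Nt5e (0.010) changed sign. The deviations then correlated at 0.60 and 0.48. With 2 Treg libraries, the deviations of Treg 1 and Treg 2 are exact opposites, so the correlations under the 2 numberings are not independent. In each block fit 1 reporter-null library had no partner (null 3 by title, null 1 by description) and added nothing to the group contrast. By description, the number 2 joins Treg 1 and null 2, the libraries with the highest summed epithelial, fibroblast and myeloid markers. What the number marks is not given in the labels, and the reported fit used no block.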
